A study of Mus musculus with 20 samples.

Results

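Myh3, Myh8, Actc1, Myl4 and Tnnt2 are genes for sarcomere proteins of developing muscle or of the heart, and they were followed here in the plantaris, a fast muscle of the mouse hind limb. The 5 genes were set by name, in a choice made with earlier results of these data known, and each was found in the count tables, which list 54532 genes. RNA-seq libraries came from male C57BL/6J mice aged 5 months. The plantaris was taken 10 days after sham surgery or after bilateral synergist ablation, which leaves the plantaris to carry the load of the removed muscles and is called mechanical overload (MOV). During surgery, 50 µL of lentivirus was injected into each plantaris, carrying a scrambled control on the left and a miR-1 mimic on the right, both driven by a mouse CMV promoter with TurboGFP as a reporter. This gave 4 groups of 5 libraries, named by surgery and virus as sham or MOV and as control or mimic. The study's methods give 5 mice for each surgery, so that the control and mimic libraries of a surgery come from the left and right muscles of the same 5 mice. Which libraries share a mouse is not given in the sources used here. Lentivirus and injection were thus shared by all groups, no group was left without virus, and virus reached some but not all fibres. The libraries are of whole muscle, so that fewer cells of a type and less RNA per cell cannot be told apart.

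The sarcomere is built from thick myosin and thin actin filaments, and most of its proteins exist as isoforms from separate genes. Embryonic and neonatal fibres use developmental myosins together with cardiac actin, an atrial light chain and cardiac troponin T, and replace them with adult fast or slow isoforms as they mature. The developmental set returns in new fibres after injury and in immature fibres, which is why it is widely used as a marker of regeneration.

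Promoter sequences of the 5 genes are shown because their levels moved together between libraries, as described further on. Each runs 5′ to 3′ from 250 bases before to 50 bases after a RefSeq start on GRCm38.p6. Capitals mark letters matching an E-box (CANNTG, the site of myogenic factors such as MyoD and myogenin), an MCAT element (CATTCC), a CArG box, a MEF2 site or a TATA box (TATAAA). All were looked for on both strands except TATAAA, which was looked for on the strand shown.
Myh3: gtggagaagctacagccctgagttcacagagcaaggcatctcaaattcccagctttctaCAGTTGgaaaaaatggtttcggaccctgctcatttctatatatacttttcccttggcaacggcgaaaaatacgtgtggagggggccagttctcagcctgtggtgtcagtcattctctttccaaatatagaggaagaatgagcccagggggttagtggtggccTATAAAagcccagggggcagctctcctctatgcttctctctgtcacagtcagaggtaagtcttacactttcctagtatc
Myh8: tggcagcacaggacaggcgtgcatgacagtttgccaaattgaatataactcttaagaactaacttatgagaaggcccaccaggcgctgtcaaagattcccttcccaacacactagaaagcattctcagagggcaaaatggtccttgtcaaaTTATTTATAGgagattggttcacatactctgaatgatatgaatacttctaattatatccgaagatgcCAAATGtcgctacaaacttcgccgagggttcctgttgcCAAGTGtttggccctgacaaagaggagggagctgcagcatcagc
Actc1: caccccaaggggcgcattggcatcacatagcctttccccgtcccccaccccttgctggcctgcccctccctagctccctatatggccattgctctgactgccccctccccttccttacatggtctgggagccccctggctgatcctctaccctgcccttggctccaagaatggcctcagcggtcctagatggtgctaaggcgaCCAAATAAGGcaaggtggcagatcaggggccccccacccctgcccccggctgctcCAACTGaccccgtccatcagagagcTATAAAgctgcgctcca
Myl4: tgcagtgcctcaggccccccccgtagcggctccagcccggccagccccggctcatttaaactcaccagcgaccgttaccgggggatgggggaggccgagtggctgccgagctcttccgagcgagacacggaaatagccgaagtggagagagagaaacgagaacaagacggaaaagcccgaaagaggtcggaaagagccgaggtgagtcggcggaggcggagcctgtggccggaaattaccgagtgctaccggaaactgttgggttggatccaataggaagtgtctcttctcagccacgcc
Tnnt2: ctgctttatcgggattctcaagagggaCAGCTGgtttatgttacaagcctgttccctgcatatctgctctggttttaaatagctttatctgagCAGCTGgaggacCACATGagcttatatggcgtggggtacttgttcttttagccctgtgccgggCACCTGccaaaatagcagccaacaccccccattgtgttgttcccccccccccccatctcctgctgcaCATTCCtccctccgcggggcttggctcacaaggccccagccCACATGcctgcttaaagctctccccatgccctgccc

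The Myh3 window (chr11:67078050-67078349, plus strand) held 1 E-box at base -191 and 1 TATAAA at base -29, the start base being counted as 1 and the base before it as -1. The Myh8 window (chr11:67276874-67277173, plus strand) held E-boxes at bases -32 and 7 and a MEF2 match at base -99. In Actc1 (chr2:114052826-114053125, minus strand) there were a CArG match at base -47, an E-box at base 9 and a TATAAA at base 34. No letters of these kinds were in the Myl4 window (chr11:104550413-104550712, plus strand), which lies inside the listed gene, downstream of its first listed base (104546017). A window at that base was not analysed here. The Tnnt2 window (chr1:135836084-135836383, plus strand) held 5 E-boxes and 1 MCAT match at base -27, and a window at its other listed start held 2 E-boxes. Of 32851 promoters of the same length, 72.3% held an E-box, 14.7% an MCAT match, 8.32% a TATAAA, 3.19% a MEF2 match and 1.63% a CArG match. A match is a description of the letters and not a binding site shown here.

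On GRCm38.p6, Myh3 (ENSMUSG00000020908, chr11:67078273-67102291) and Myh8 (ENSMUSG00000055775, chr11:67277124-67308634) lie in the same cluster of myosin heavy chain genes. Actc1 (ENSMUSG00000068614) is at chr2:114047282-114052875 and Tnnt2 (ENSMUSG00000026414) at chr1:135836315-135852268. Myl4 (ENSMUSG00000061086, chr11:104546017-104587215) overlaps Cdc27 and 4 genes named only by number. Whether the counting used strand is not given in the sources used here, so reads of Myl4 and its overlapping genes may not be separated.

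Totals were between 12036360 and 23056525 counts per library, with a median of 16940547.5. Levels are given in CPM, counts scaled to a common library size, after TMM scaling, a trimmed mean of log ratios that allows for differences in composition. On the leading principal component of 16161 genes, which held 29.7% of the variance, replicate 5 of MOV control (-21.8) and of MOV mimic (-25.9) lay among the sham libraries (-73.9 to 9.0). The other 8 MOV libraries were between 21.1 and 65.3. Replicate 1 of sham control (-73.9) and of sham mimic (-69.5) lay apart from the other sham libraries, the next lowest being at -34.0. Results are therefore also given without single libraries where that changed them. The summed level of 6 skeletal muscle markers (Ckm, Acta1, Mb, Des, Ttn and Myh4) was between 55673 and 144909 CPM.

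Myh3 encodes embryonic myosin heavy chain, the motor of the thick filament in the earliest fibres. Sham control replicates 1 to 5 had 11.3, 58.0, 325, 281 and 14.7 CPM. The sham mimic libraries had 10.5, 1035, 25.6, 117 and 141 CPM. Both sham groups thus held libraries near 10 CPM and libraries above 100 CPM, and replicate 2 of sham mimic was the highest of all 20 libraries. MOV control libraries had 760, 356, 433, 633 and 101 CPM. MOV mimic libraries had 453, 229, 277, 571 and 4.43 CPM, the last from 70 counts. Of the MOV control libraries 4 were above every sham control library, and replicate 5 of MOV mimic was the lowest of all 20 libraries, so that MOV mimic spanned 129-fold.

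Myh8 encodes the perinatal myosin heavy chain that follows Myh3 in development. Its levels in sham control were 10.5, 87.4, 280, 235 and 34.6 CPM. In sham mimic they were 13.6, 465, 44.6, 52.2 and 54.8 CPM. Replicates 3 and 4 were high in sham control and replicate 2 in sham mimic, as for Myh3. In MOV control the levels were 470, 274, 210, 382 and 126.2 CPM. In MOV mimic they were 198, 202, 194, 502 and 20.8 CPM. All MOV groups overlapped the sham groups, with 2 of the 5 MOV control libraries above every sham control library.

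Myh3 and Myh8 were also compared with each other per length, using the transcript with the longest coding sequence. The ratio of Myh3 to Myh8 counts per kb was 0.434 to 1.22 in sham control and 0.586 to 2.62 in sham mimic. It was 0.812 to 2.10 in MOV control and 0.218 to 2.33 in MOV mimic. The ratio therefore fell on both sides of 1 in every group, and its lowest value was in replicate 5 of MOV mimic.

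Actc1 encodes cardiac alpha-actin, the thin filament actin of the heart and of fetal skeletal muscle. Sham control had 123, 625, 593, 369 and 332 CPM of Actc1. Sham mimic had 165, 1053, 99.9, 161 and 117 CPM. Apart from replicate 2, the sham mimic libraries were all at or below 165 CPM, a level that only replicate 1 of sham control fell under. MOV control had 868, 636, 626, 1020 and 396 CPM, and 4 of these 5 libraries were above every sham control library. MOV mimic had 427, 404, 916, 786 and 46.3 CPM. None of the MOV mimic libraries was above the highest sham mimic library.

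Myl4 encodes the atrial and embryonic essential light chain, a small subunit bound to the myosin neck. Levels of 8.01, 59.5, 149, 104 and 28.9 CPM were measured in sham control. Those in sham mimic were 7.99, 141, 45.7, 41.5 and 33.5 CPM. Replicate 1 was the lowest of both sham groups at nearly the same level. Levels of 228, 142, 115, 228 and 91.1 CPM were measured in MOV control. Those in MOV mimic were 140, 134, 102, 251 and 15.6 CPM. Over both viruses, 9 of the 10 MOV libraries were above the sham median of 43.6 CPM.

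Tnnt2 encodes cardiac troponin T, which anchors the calcium-sensing troponin complex to tropomyosin in the heart and in early skeletal muscle. It was at 3.73, 24.3, 69.8, 44.5 and 9.71 CPM in sham control, the lowest value coming from 48 counts. It was at 4.19, 50.2, 22.5, 14.0 and 14.0 CPM in sham mimic. Both sham groups had replicate 1 as their lowest library, and sham mimic was led by replicate 2. In MOV control it was at 126.3, 76.9, 54.1, 82.0 and 43.8 CPM. In MOV mimic it was at 92.6, 74.1, 49.5, 111 and 10.3 CPM. Over both viruses, 6 of the 10 MOV libraries were above all 10 sham libraries, against 3 for Myl4, 2 for Myh8 and 0 for Myh3 and Actc1.

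**Figure D1:**
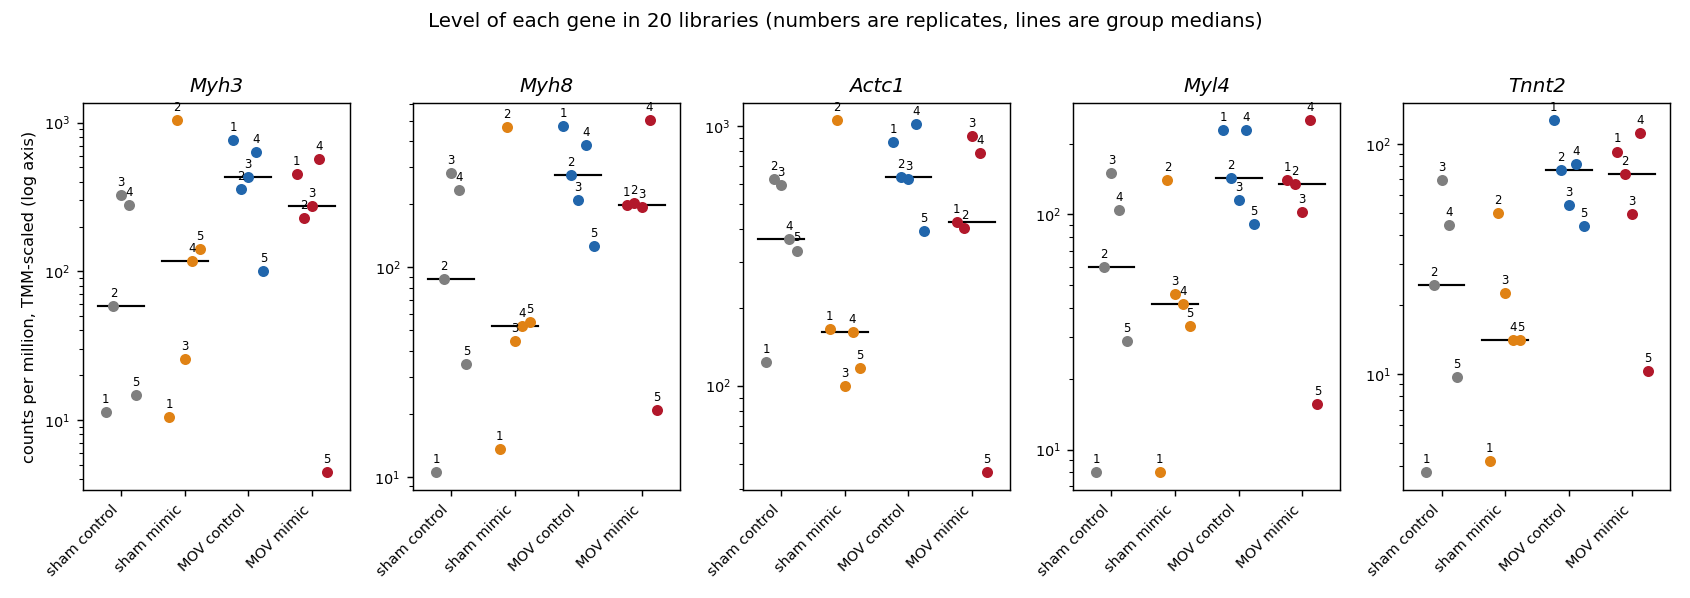
Level of each gene in CPM on a log axis, with 1 point per library, the replicate number above it and a line at the group median. Medians were higher in MOV than in sham within each virus for all 5 genes, while replicate 2 of sham mimic sat high and replicate 5 of MOV mimic sat low in each panel.

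Between the genes, levels were compared per kb of transcript. Actc1 was the highest in all 20 libraries, at a mean of 277 ± 140 CPM per kb (SD, n = 5) in sham control and 481 ± 164 CPM per kb in MOV control. Myl4 followed at 74.3 ± 60.7 and 170 ± 67.7 CPM per kb, above Tnnt2 and Myh8 in all 20 libraries and above Myh3 in 19. Tnnt2, Myh3 and Myh8 came last, at 27.7 ± 24.7, 22.9 ± 25.3 and 21.1 ± 19.7 CPM per kb in sham control. Tnnt2 was above Myh3 in 12 of the 20 libraries and Myh3 above Myh8 in 14, with means in sham control closer than their SDs. Tnnt2 was above Myh8 in 19 of the 20 libraries.

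The comparison of MOV control with sham control asks how overload changed the muscle in the presence of control virus. All 5 genes had higher means in MOV control, and none passed the test. The log2FC was 1.73 (SE 0.84) for Myh3, at a mean of 457 ± 255 against 138 ± 153 CPM (SD, n = 5 each). It was 1.34 (SE 0.59) for Tnnt2, 1.205 (SE 0.57) for Myl4, 1.18 (SE 0.67) for Myh8 and 0.80 (SE 0.37) for Actc1. The adjusted p of edgeR's quasi-likelihood test was 0.248 for Tnnt2, 0.278 for Actc1, 0.285 for Myl4, 0.295 for Myh3 and 0.377 for Myh8. At an unadjusted p under 0.05 there was 1 of the 5, Tnnt2, beside 2726 of all genes. Over all genes, 0.00668% of 14974 passed in edgeR, which was Nos1 alone, the gene for neuronal nitric oxide synthase, and named here after its value was seen. DESeq2 called 6.04% of the same genes and again 0 of the 5, with adjusted p of 0.188 or more for each of them. Without sham control 1 the log2FC was 1.43 for Myh3, 1.05 for Tnnt2, 0.91 for Myl4, 0.88 for Myh8 and 0.57 for Actc1, with adjusted p of 0.337 to 0.497. Without sham control 3 it was 2.33 for Myh3, 1.90 for Tnnt2, 1.68 for Myl4 and Myh8 and 0.98 for Actc1.

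Exact two-sided permutation tests of the group labels, complete over the 10 libraries compared, on log2(CPM + 0.5), were run for the 5 genes in 4 comparisons, 20 tests in all, with no adjustment over them. In MOV control against sham control the difference was 1.84 for Tnnt2 (p = 0.0397, exact permutation test) and 0.93 for Actc1 (p = 0.0476, exact permutation test). The exact permutation p was 0.0556 for Myh3 and Myl4 and 0.0873 for Myh8. Each library was also left out in turn, here and in the other comparisons, with no adjustment for the number of these tests. With 1 library fewer, p was above 0.05 in some cases, with differences that were mostly close to those with all libraries. For Tnnt2 the exact permutation p was between 0.0556 and 0.0952, at differences of 1.27 to 2.01, when sham control 1 or any one MOV control library was left out. The lowest of these differences was without sham control 1. For Actc1 it was between 0.0952 and 0.151, at differences of 0.55 to 0.95, when sham control 1, 4 or 5 or any of MOV control 1 to 4 was left out. The lowest was again without sham control 1, and the others were at least 0.78. In the other direction, without sham control 3 it was 0.0317 for Myh3, 0.0397 for Myh8 and 0.0159 for Myl4. It was 0.0397 for Myh3 and Myl4 without sham control 4, and 0.0397 for Myh3 without MOV control 5. With library totals in place of TMM scaling it was 0.0476 for Myl4.

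The comparison of MOV mimic with sham mimic asks the same in muscles that received the mimic. Means were 67.6 ± 39.4 against 21.0 ± 17.6 CPM for Tnnt2 and 129 ± 84.4 against 53.8 ± 50.6 CPM for Myl4 (SD, n = 5 each). The log2FC was 1.69 (SE 0.61) for Tnnt2, 1.26 (SE 0.67) for Myl4, 0.83 (SE 0.86) for Myh8, 0.70 (SE 0.74) for Actc1 and 0.21 (SE 1.10) for Myh3. The adjusted p in edgeR was 0.309 for Tnnt2 and 0.441 to 0.949 for the other genes, so 0 of 5 passed. Of all 14918 genes, 0% passed in edgeR and 1.4% in DESeq2, which called 0 of the 5. edgeR had 1997 genes at an unadjusted p under 0.05, and Tnnt2 was among them. With voom and sample quality weights in limma, which gives less weight to libraries that vary more, the log2FC was 0.98 for Myh3, 1.36 for Myh8 and 1.26 for Actc1, with adjusted p of 0.321 to 0.662. The values moved in both directions with single libraries. Without sham mimic 2 the log2FC was 2.05 for Myh3, 2.42 for Myh8, 1.92 for Actc1, 1.98 for Myl4 and 2.29 for Tnnt2, with adjusted p of 0.304 to 0.423. Without MOV mimic 5 it was 1.96 for Tnnt2, at an adjusted p of 0.0800. Without sham mimic 1 it was -0.10 for Myh3 and 0.53 to 1.42 for the other genes. Without MOV mimic 4 it was -0.15 for Myh3, 0.29 for Myh8, 0.49 for Actc1, 0.86 for Myl4 and 1.43 for Tnnt2, and without MOV mimic 3 it was 0.38 for Actc1. The exact permutation p for Tnnt2 was 0.0873 with all libraries, 0.0476 without sham mimic 2 and 0.0238 without MOV mimic 5.

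**Figure D2:**
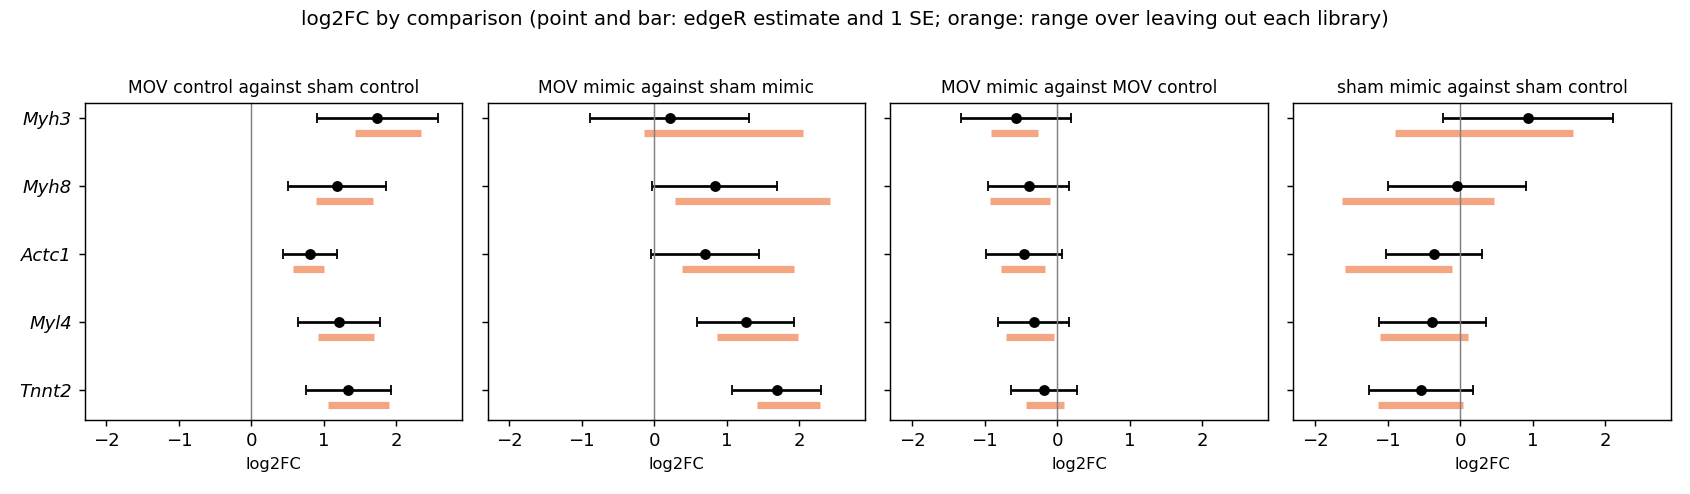
The log2FC of each gene in the 4 comparisons, with points and bars for the edgeR estimate and 1 SE, and orange bands for the range over leaving out each library in turn. Points lie right of 0 for all 5 genes in both comparisons of MOV with sham, and the bands cross 0 for Myh3 in MOV mimic against sham mimic (-0.15 to 2.05).

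The comparison of MOV mimic with MOV control asks what the miR-1 mimic did under overload. The libraries come from the same 5 mice but were taken as unpaired, since their numbers are not tied to mice. All 5 genes had lower means in MOV mimic, by less than the SD between libraries of a group, a spread that does not allow for shared mice. For Myh3 the means were 307 ± 218 and 457 ± 255 CPM (SD, n = 5 each), with a log2FC of -0.57 (SE 0.76). The log2FC was -0.46 (SE 0.52) for Actc1, -0.39 (SE 0.56) for Myh8, -0.32 (SE 0.49) for Myl4 and -0.18 (SE 0.46) for Tnnt2. The adjusted p in edgeR was 0.999 for each gene, with 0% of 15220 genes called and 641 at an unadjusted p under 0.05. DESeq2 called 0.0197%, which held 0 of the 5 genes. With voom the log2FC was -1.08 for Myh3, -0.76 for Myh8, -0.71 for Actc1, -0.54 for Myl4 and -0.33 for Tnnt2, with adjusted p of 0.833 to 0.920. Without MOV mimic 5 the log2FC was -0.26 for Myh3, -0.17 for Actc1, -0.10 for Myh8, -0.04 for Myl4 and 0.09 for Tnnt2. Without MOV mimic 4 it was -0.92 for Myh3 and Myh8, -0.71 for Myl4, -0.66 for Actc1 and -0.43 for Tnnt2, and without MOV mimic 3 it was -0.77 for Actc1. Without MOV control 1 it was -0.31 for Myh3, -0.16 for Myh8 and 0.07 for Tnnt2.

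In sham muscle the mimic was compared with control virus in the same way, again unpaired. For Actc1 the means were 319 ± 411 and 408 ± 206 CPM (SD, n = 5 each), and for Myh3 they were 266 ± 434 and 138 ± 153 CPM. The log2FC was 0.94 (SE 1.17) for Myh3, -0.05 (SE 0.95) for Myh8, -0.36 (SE 0.66) for Actc1, -0.38 (SE 0.74) for Myl4 and -0.54 (SE 0.72) for Tnnt2. None passed, at an adjusted p of 1.00 in edgeR for each, and of all 14746 genes 0% passed in edgeR, with 254 at an unadjusted p under 0.05, and 0% in DESeq2. With voom the log2FC was 0.38 for Myh3, -0.60 for Myh8 and -1.26 for Actc1, at an adjusted p of 0.999 for each. Without sham mimic 2 the log2FC of all 5 genes was negative, from -0.89 for Myh3 to -1.64 for Myh8, with adjusted p of 1.00. Without sham control 3 it was 1.56 for Myh3, 0.47 for Myh8, 0.11 for Myl4, 0.04 for Tnnt2 and -0.18 for Actc1. The exact permutation p of Actc1 was 0.278 with all libraries and 0.0317 without sham mimic 2. Sham mimic 2 was the highest library of its group for Actc1, so the second value leaves out a library that stood apart in the same values.

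The interaction of surgery and virus asks whether the difference of MOV from sham itself differed between the viruses, in 1 fit of all 20 libraries. These come from 10 mice but were taken as unpaired, so the p-values do not allow for shared mice. The interaction was -1.52 (SE 1.51) on the log2 scale for Myh3, -0.35 (SE 1.19) for Myh8, -0.10 (SE 0.91) for Actc1, 0.06 (SE 0.95) for Myl4 and 0.35 (SE 0.91) for Tnnt2. The adjusted p in edgeR was 1.00 for each, with 0% of 16166 genes called and 426 at an unadjusted p under 0.05, while DESeq2 called 0.00619% and 0 of the 5. With voom it was 0.48 for Actc1, 0.20 for Tnnt2, -0.11 for Myl4 and -0.20 for Myh8. Without sham mimic 2 the interaction was positive for all 5 genes, at 0.33 for Myh3 and 1.25 for Myh8. Without sham control 3 it was negative for all 5, at -2.12 for Myh3, -0.85 for Myh8, -0.42 for Myl4, -0.28 for Actc1 and -0.21 for Tnnt2.

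Each gene was also taken as a share of its isoform family, which does not depend on scaling between libraries. The families were Myh1, Myh2, Myh3, Myh4, Myh7 and Myh8 for the heavy chains, Acta1 and Actc1 for actin, Myl1, Myl3 and Myl4 for the light chains, and Tnnt1, Tnnt2 and Tnnt3 for troponin T. The members were a small part of every family. A share also moves with the other genes of its family. Mean levels in sham control and MOV control were 35399 and 11730 CPM for Myh4 and 13575 and 24242 CPM for Myh1. They were 15821 and 11505 CPM for Tnnt3 and 34208 and 35761 CPM for Acta1. How much of a share difference came from these genes was not tested. Myh3 was 0.0142% to 0.694% of heavy chain counts in sham control and 0.0144% to 2.00% in sham mimic. It was 0.170% to 2.25% in MOV control and 0.0105% to 1.91% in MOV mimic. Myh8 held 0.0133% to 0.599% in sham control and 0.0187% to 0.898% in sham mimic. It held 0.213% to 1.39% in MOV control and 0.0492% to 1.68% in MOV mimic. Actc1 took 1.21% ± 0.606 (SD, n = 5) of actin counts in sham muscle with control virus and 0.763% ± 0.855 with mimic, and 1.99% ± 0.631 and 1.78% ± 1.05 in MOV muscle. Acta1, the adult skeletal actin, made up the rest of the actin counts.

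The share of Myl4 in light chain counts was 0.597% ± 0.546 in sham muscle with control virus and 0.417% ± 0.334 with mimic, and 1.27% ± 0.608 and 1.36% ± 0.975 in MOV muscle (SD, n = 5 each). The share of Tnnt2 in troponin T counts was 0.224% ± 0.215, 0.172% ± 0.161, 0.724% ± 0.413 and 0.7104% ± 0.440 in the same order. In both genes the mimic and control means within MOV differed by less than 1 SD. Of the 20 exact two-sided permutation tests of shares, which were not adjusted over the 5 genes, 2 were under 0.05. These were Myh3 (difference 0.888 percentage points, exact permutation p = 0.0317) and Tnnt2 (0.499 percentage points, exact permutation p = 0.0476) in MOV control against sham control. With 1 library fewer, p was again above 0.05 in some cases. For Myh3 the exact permutation p was 0.0794 without sham control 1, 2 or 5, at differences of 0.820 to 0.844 percentage points, and 0.0635 without MOV control 1, at 0.620 percentage points. For Tnnt2 it was 0.0556 to 0.103 without sham control 1, 2 or 5 or MOV control 1, 2 or 4, at differences of 0.347 to 0.533 percentage points, the lowest being without MOV control 1. Without MOV mimic 5 the share of Tnnt2, Myl4 and Actc1 in MOV mimic against sham mimic had exact permutation p of 0.0159, 0.0159 and 0.0317. In MOV control against sham control, leaving out MOV control 5 gave an exact permutation p of 0.0238 for the shares of Myh8 and Actc1 and 0.0397 for Myl4, and leaving out sham control 3 gave 0.0317 for Myh8 and Myl4. Dividing counts by transcript length left all 20 tests on the same side of 0.05.

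**Figure D3:**
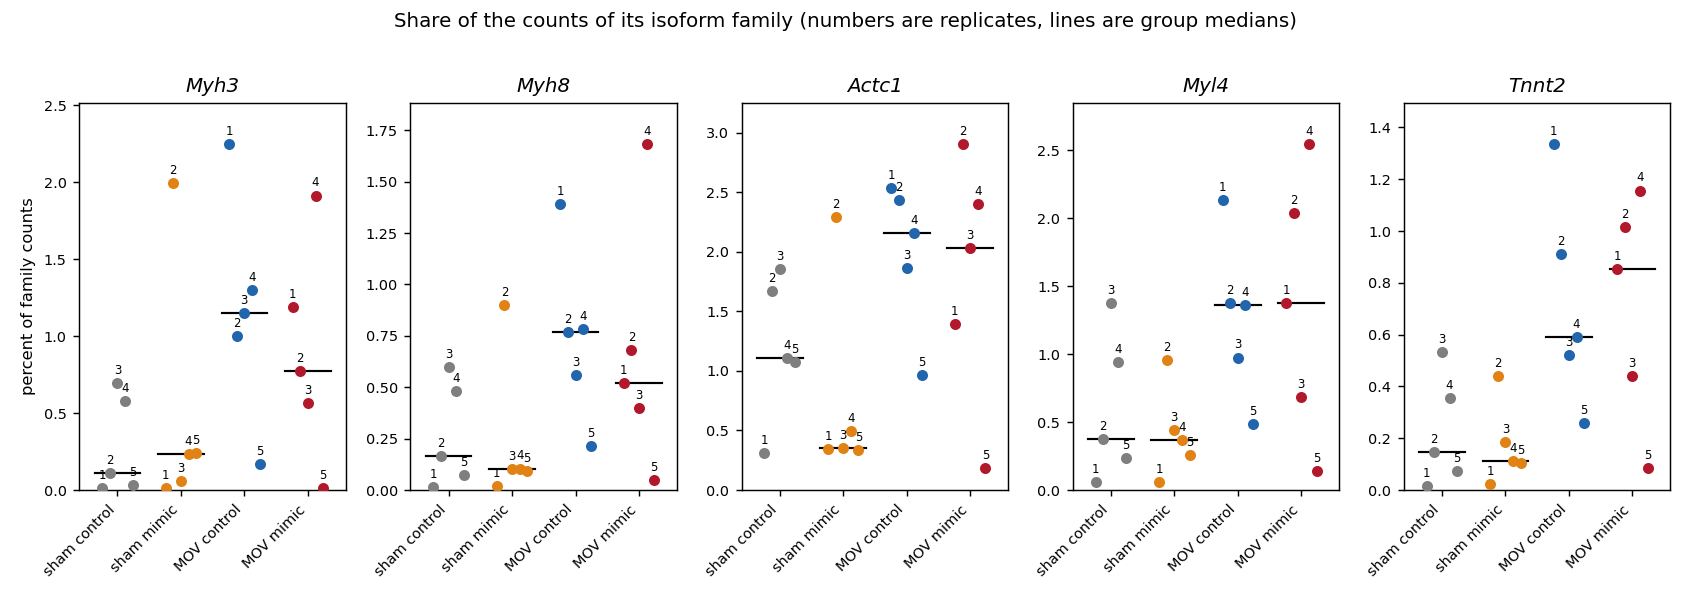
Share of each gene in the counts of its isoform family, in percent on a linear axis from 0, with 1 point per library, the replicate number above it and a line at the group median. Group medians are higher in MOV than in sham within each virus, and replicate 5 is the lowest library of both MOV groups in all 5 panels.

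The spread between libraries of a group was wide for all 5 genes. The pooled SD of log2(CPM + 0.5) within groups was 2.27 for Myh3, 1.63 for Myh8, 1.36 for Myl4, 1.27 for Tnnt2 and 1.22 for Actc1, against a median of 0.39 over 16166 genes. Myh3 had the 6th largest spread of all these genes, Myh8 was at place 36, Myl4 at 78, Tnnt2 at 102 and Actc1 at 121. By the mean log2 level of the 5 genes, sham control 1 (3.83), MOV mimic 5 (3.94) and sham mimic 1 (3.99) were the lowest of the 20 libraries. MOV control 1 (8.61), MOV mimic 4 (8.51), MOV control 4 (8.42) and sham mimic 2 (8.34) were the highest.

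The 5 genes deviated together from their group means. Over the 20 libraries, Pearson's r of these deviations was between 0.74 and 0.98 for each pair of members, highest for Myl4 with Tnnt2 (0.98) and Myl4 with Myh8 (0.98). These correlations are descriptions over 20 libraries of 4 groups that share their scaling, and no test is attached to them. Among 13230 genes with a mean of at least 1 CPM, the genes most like Myh3 were Myh8 (0.95), Myl6b (0.95), a light chain of slow and embryonic muscle, and Mymk (0.94), the fusion protein myomaker. Those most like Myh8 were Myl4 (0.98), Mymk (0.97) and Tnnt2 (0.96). Those most like Tnnt2 were Myl4 (0.98), Ppfia4 (0.98) and Mymk (0.97), and Myl4 was followed most closely by Tnnt2, Myh8 and Ppfia4 (0.97). Actc1 had lower values, with Ccdc141 (0.92), Zdbf2 (0.92) and Casq2 (0.91) as its nearest genes, the last being the calcium-binding calsequestrin of slow and cardiac muscle.

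**Figure D4:**
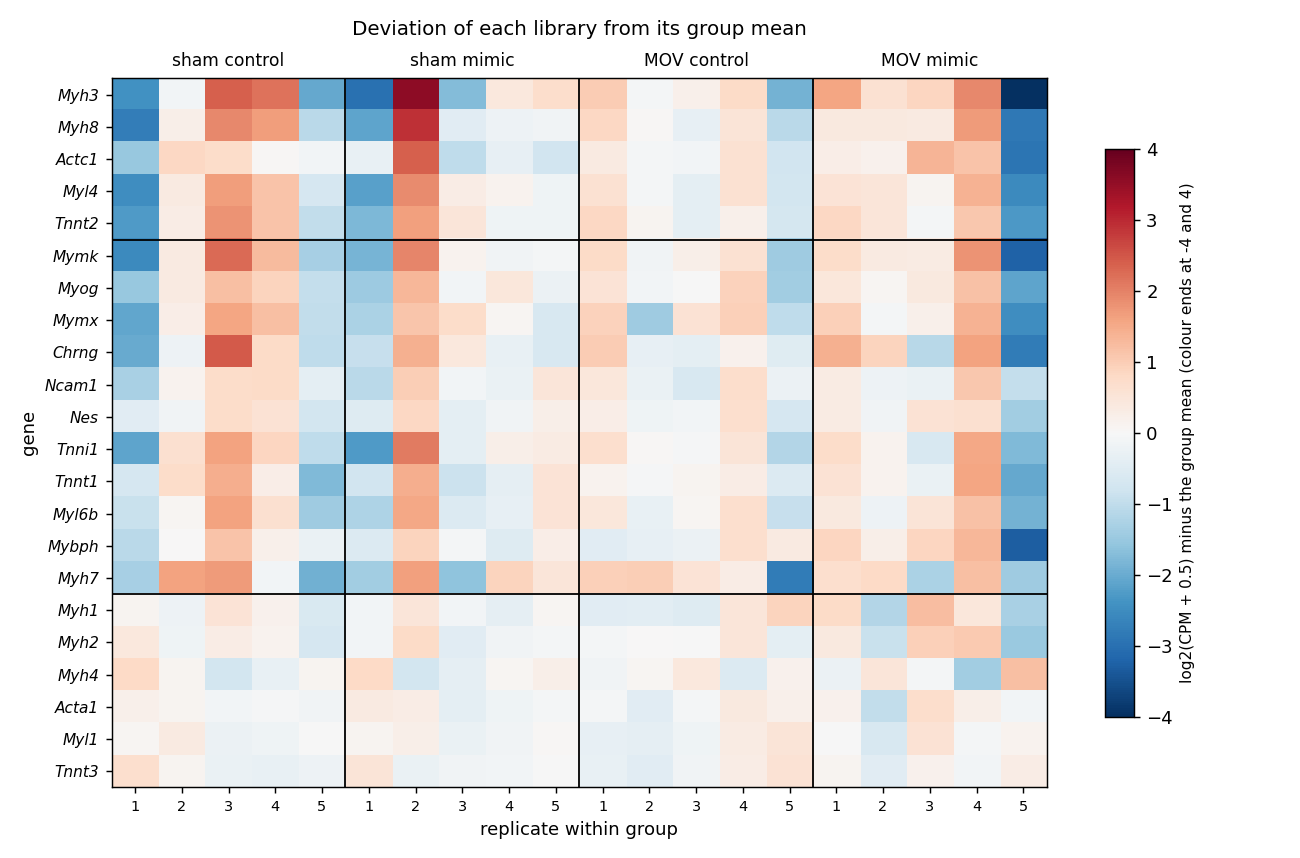
Deviation of each library from its group mean in log2(CPM + 0.5), with genes in rows, the 20 libraries in columns, red for above and blue for below the mean. The 5 members in the top block share the colours of Mymk, Myog and Tnni1 in the middle block across most libraries, and Myh4 in the bottom block has mostly the opposite colour. Rows of the middle and bottom blocks are a selection from the gene lists. Genes not drawn include Myod1 (r of -0.10 to -0.02 with the members), Myh6 (-0.65 to -0.34) and Cdh15 (0.07 to 0.39). Myl2 (0.10 to 0.20) and Pax7 (0.48 to 0.86) were also left out.

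The adult counterparts were the 9 genes Myh1, Myh2, Myh4, Myh7, Acta1, Myl1, Myl3, Tnnt1 and Tnnt3. Of these 0 passed edgeR's test in any of the 5 comparisons, with 4 and 3 (44.4% and 33.3%, beside 18.2% and 13.4% of all genes) at an unadjusted p under 0.05 in the comparisons of MOV with sham, and with a median log2FC of 0.11 in MOV control against sham control and -0.26 in MOV mimic against sham mimic, beside 0.04 and 0.02 over all genes. Myh4, the myosin of the fastest fibres, had 20228 to 57669 CPM in sham control and 7921 to 15489 CPM in MOV control. These groups did not overlap, and the log2FC was -1.59 (SE 0.30) with an adjusted p of 0.0554 in edgeR. Under mimic the groups overlapped, at 18569.6 to 52967 CPM in sham and 6047 to 36305 CPM in MOV, and the log2FC was -0.80 (SE 0.42, adjusted p 0.436 in edgeR). The adult genes went both ways in their deviations. Those of Myh4 correlated negatively with every member, with r from -0.87 for Myl4 to -0.72 for Actc1, as did those of Tnnt3 (-0.68 to -0.40). Those of Tnnt1 (0.75 to 0.88), Myh7 (0.57 to 0.75), Myh2 (0.46 to 0.71) and Myh1 (0.35 to 0.50) correlated positively with every member. For Acta1, Myl1 and Myl3 the sign of r differed between members, within -0.28 to 0.34, and r was 0.30 for Acta1 with Actc1, its cardiac counterpart.

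Of 10 other cardiac or slow sarcomere genes, 8 passed the filter on low counts, and 0 of them passed edgeR's test in any comparison, with 5 and 4 (62.5% and 50%, beside the same 18.2% and 13.4% of all genes) at an unadjusted p under 0.05 in the comparisons of MOV with sham. Their median log2FC was 0.99 in MOV control against sham control and 1.29 in MOV mimic against sham mimic. The 5 went both ways, with Myh6 (-1.05) and Myl2 lower in MOV control and Mybph (1.32), Myl6b (1.42) and Tnni1 higher. The 4 under mimic (Myh7b, Tnnc1, Tnni1 and Mybph) were higher in MOV. Like the other lists, this one was chosen with earlier results of these data known, so the counts are only a description. Tnni1, the slow troponin I, had a log2FC of 1.45 (SE 0.56) and 1.59 (SE 0.70) in these comparisons. Its deviations followed those of Myl4 and Myh8 with r of 0.95 each. Myl2, the ventricular and slow regulatory light chain, had a log2FC of -0.69 (SE 0.22) in MOV control against sham control and -0.29 (SE 0.23) in MOV mimic against sham mimic, opposite in sign to that of all 5 members.

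Of 12 myogenic regulators and immature fibre genes, all 12 were tested and 0 passed in edgeR in any comparison, with 6 and 3 (50% and 25%, beside 18.2% and 13.4% of all genes) at an unadjusted p under 0.05 in the comparisons of MOV with sham. Their median log2FC was 1.15 in MOV control against sham control, 0.83 in MOV mimic against sham mimic and -0.34 in MOV mimic against MOV control. The members' own medians were 1.205, 0.83 and -0.39. Myog, the factor that drives differentiation, had a log2FC of 1.40 (SE 0.52) and 1.52 (SE 0.55) in the comparisons of MOV with sham, and its deviations correlated with those of the members at 0.81 to 0.95. Pax7, the marker of satellite cells, had 1.17 (SE 0.27) in MOV control against sham control at an adjusted p of 0.0630 and 0.43 (SE 0.40) in MOV mimic against sham mimic at an adjusted p of 0.663 in edgeR, and its deviations correlated with the members at 0.48 to 0.86. Myod1, the factor of activated myoblasts, had r between -0.10 and -0.02.

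The summed level of these 12 genes was 145 to 377 CPM in sham muscle with control virus and 202 to 446 CPM with mimic, and 363 to 734 and 173 to 618 CPM in MOV muscle. Its deviations correlated with the members' mean deviation at r = 0.90 over the 20 libraries. The same r was -0.65 for the 6 skeletal muscle markers, which include Acta1 and Myh4, -0.64 for the 2 Schwann cell markers, 0.51 for 5 fibroblast and tendon markers and 0.38 for 8 leukocyte markers. It was 0.25 for 3 endothelial markers, -0.01 for 5 smooth muscle markers and -0.34 for 2 adipocyte markers. By ranks (Spearman's rho) the correlation was 0.27 for fibroblast and tendon markers and 0.17 for leukocyte markers. The rho was 0.95 for the 12 genes, -0.54 for skeletal muscle markers and -0.65 for Schwann cell markers. For endothelial, smooth muscle and adipocyte markers it was 0.31, -0.10 and -0.41. All genes of these lists were found in the tables. Fibroblast and tendon markers summed to 509 to 7403 CPM in sham muscle with control virus and 831 to 6260 CPM with mimic, and to 2054 to 8312 and 3788 to 7083 CPM in MOV muscle. Replicate 1 was the lowest of both sham groups in this sum and in the leukocyte sum, as it was for Myh3, Myh8, Myl4 and Tnnt2. The same libraries had the highest sums of skeletal muscle markers of all 20, at 141787 CPM in sham control and 144909 CPM in sham mimic, the next being 106971 CPM. Leukocyte markers summed to 175 to 752, 179 to 697, 160 to 626 and 355 to 647 CPM in the same order. Endothelial markers summed to 192 to 251 CPM in sham control against 106 to 220.0 CPM in MOV control, and to 218 to 312 CPM in sham mimic against 164 to 182 CPM in MOV mimic. Smooth muscle markers summed to 378 to 469 against 200.3 to 415 CPM and to 394 to 507 against 264 to 337 CPM in the same comparisons. Both sums were thus lower in MOV mimic than in sham mimic without overlap, while the control virus groups overlapped. The smooth muscle list, which also holds the pericyte gene Rgs5, did not move as a set. In MOV mimic against sham mimic the log2FC was -0.90 for Rgs5, -0.79 for Myh11, -0.51 for Cnn1, 0.05 for Acta2 and 0.40 for Tagln. In MOV control against sham control it was -1.17 for Myh11, -0.81 for Rgs5, 0.21 for Acta2, 0.93 for Cnn1 and 1.43 for Tagln. Skeletal muscle markers summed to at least 82118.5 CPM in both sham groups and to at most 93041 CPM in both MOV groups. Schwann cell markers were between 6.47 and 56.6 CPM and adipocyte markers between 0.0635 and 15.0 CPM over all groups. The part of these cell types in the members' levels was not tested.

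Since Actc1, Myl4 and Tnnt2 are also genes of the heart, 5 cardiomyocyte markers (Myh6, Nppa, Myl7, Tnni3 and Ryr2) were summed. They came to 2.75 to 7.0 CPM in sham muscle with control virus and 2.75 to 4.03 CPM with mimic, and to 2.18 to 4.96 and 2.73 to 7.72 CPM in MOV muscle. Myl7, the atrial regulatory light chain, had 0 counts in all 20 libraries, and Nppa was at most 0.38 CPM. The r of this sum with the members' mean deviation was -0.23. Genes within the sum went both ways, with r of -0.65 to -0.34 with the members for Myh6 and 0.25 to 0.51 for Tnni3.

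Related isoforms share sequence, and how the counting treated reads with several alignments is not given in the sources used here. Of the 50-base stretches of Myh8 transcripts, 7.45% were also in Myh1, 9.20% in Myh2 and 7.26% in Myh4, so part of the reads of Myh8 may not be told apart from those of the adult myosins. For Myh3 these shares were 1.56%, 1.77% and 0.895%. Actc1 shared 0% with Acta1, Myl4 0% with Myl1 and Myl3, and Tnnt2 0% with Tnnt1 and Tnnt3.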

How the data were processed

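RNA-seq counts of 20 plantaris libraries were used. The values are unnormalized read counts for each Ensembl gene, as the authors deposited them in 1 table for control and 1 for mimic virus, made with Cutadapt 4.4, Trim Galore 0.6.10, Hisat2 2.0.5 on GRCm38 and featureCounts 1.5.0-p3. The annotation release and strand setting are not given in the sources used here. The rule for named genes took the 5 members, 3 gene lists and, for each member, the 3 genes of highest r. Cell type markers from fixed lists are also named, and Nos1 was named after its value was seen. These members and lists were chosen with earlier results of these data known.

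Each comparison used the 10 libraries of its groups in edgeR 4.0.16 (TMM, filterByExpr, quasi-likelihood test, two-sided), with Benjamini-Hochberg adjustment over all genes tested and a threshold of 0.05. The interaction used all 20 libraries. The SE is the size of the log2FC over the root of F. Fits were tested on simulated data. Alternatives were DESeq2 1.42.0, voom with sample quality weights in limma 3.58.1, other scalings and filters, all 20 libraries, a replicate block and each library left out. CPM used TMM factors of all 20 libraries and a pseudocount of 0.5 CPM on the log2 scale. Transcript lengths came from GENCODE vM1, and coordinates and promoters from RefSeq tables on GRCm38.p6, which held all 5 members. R 4.3.3 and Python 3.11.15 were used. Libraries of the same group were all different (lowest chi-square 12.7 and highest 154 per gene, 40 pairs). The study's methods give 5 mice for each surgery and 5 libraries a group, with control virus in the left and mimic in the right plantaris. In MOV against sham within a virus, p-values therefore measure the spread between mice. Mimic and control libraries of a surgery share mice, but were fitted as unpaired because no source used here ties a library to a mouse. For mimic against control and for the interaction, p-values thus do not allow for the shared mice. How many genes each list held and how many passed are given with each list.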

Additional observations from a re-analysis of the deposited data

Results flagged for a closer look

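Libraries lying far from the other 4 of their group were looked for in the CPM and in the isoform share of each of the 5 genes, 40 groups of 5 libraries in all, by the gap to the nearest library divided by the range of the group (above 0.71). Chance gives this in about 1 in 20 groups of normally distributed values, and 7 were found. CPM and shares of these genes are spread over a wide range on a linear scale, and how often chance gives it there was not measured. All 7 were the highest library of sham mimic, replicate 2. Its level was 1035 CPM for Myh3 (ratio 0.873), 465 CPM for Myh8 (0.909), 1053 CPM for Actc1 (0.932) and 141 CPM for Myl4 (0.716). Its share was 2.00% of heavy chain counts for Myh3 (0.885), 0.898% for Myh8 (0.902) and 2.29% of actin counts for Actc1 (0.920). The 7 values come from the same library and from genes that move together, so they are not separate observations. The cause was not tested.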

How the results depend on the processing

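None of the 5 genes passed the threshold in any comparison under any alternative run in edgeR, DESeq2 or limma, nor with any single library left out. Their lowest adjusted p was 0.0800, for Tnnt2 in MOV mimic against sham mimic without MOV mimic 5. The count of DEGs over all genes depended on the setting. For MOV control against sham control it was 1 in edgeR, 905 in DESeq2, 388 with no filter, 163 with at least 10 counts in total, 294 with voom, 36 with all 20 libraries in the fit and 0 to 426 with single libraries left out, 426 being without sham control 3. For MOV mimic against sham mimic, 0 became 209 in DESeq2, 1 with no filter, 2 with voom, 3 with all 20 libraries and 0 to 101 with single libraries left out, 101 being without MOV mimic 5. For MOV mimic against MOV control, 0 became 3 in DESeq2 and 1 with all 20 libraries. For the interaction, 0 became 1 in DESeq2. The cause was not tested.

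Leaving out single libraries, the log2FC of Myh3 in MOV mimic against sham mimic was -0.15 to 2.05, and that of Tnnt2 in MOV mimic against MOV control -0.431 to 0.0914. In sham mimic against sham control it was -0.89 to 1.56 for Myh3, -1.14 to 0.0419 for Tnnt2, -1.64 to 0.47 for Myh8 and -1.11 to 0.11 for Myl4. The interaction was -2.12 to 0.33 for Myh3, -0.21 to 0.96 for Tnnt2, -0.88 to 1.25 for Myh8, -0.42 to 0.79 for Myl4 and -0.42 to 1.13 for Actc1. With voom it was -0.11 for Myl4 and 0.48 for Actc1. Of 20 exact permutation tests each, 0 to 5 were under 0.05 for shares and 0 to 5 for log2 CPM, an alternative added after the values were seen. Share differences that changed sign, in percentage points, were -0.148 to 0.348 for Myh3, -0.186 to 0.0604 for Myh8, -0.314 to 0.0145 for Myl4 and -0.119 to 0.0250 for Tnnt2 in sham mimic against sham control. In MOV mimic against MOV control they were -0.330 to 0.0848 for Myh8, -0.486 to 0.194 for Actc1, -0.207 to 0.394 for Myl4 and -0.129 to 0.143 for Tnnt2. The log2 CPM difference in sham mimic against sham control was -0.42 to 1.22 for Myh3, -1.01 to 0.25 for Myh8, -0.93 to 0.22 for Myl4 and -0.88 to 0.14 for Tnnt2, and in MOV mimic against MOV control -0.72 to 0.13 for Tnnt2.

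Mimic and control libraries of equal number were also joined by a replicate block, since both come from the same 5 mice, although no source used here says that a number marks a mouse. Deviations of same-number libraries correlated over 0.1 in 7 of 10 pairs, and 13 of 20 libraries correlated best with their own number, a hint from the data only. With the block, MOV mimic against MOV control had 0 DEGs in edgeR and 127 in DESeq2, and the interaction 0 and 5, the last from a fit added after the values were seen, with 0 of the 5 genes among any of them. The log2FC in MOV mimic against MOV control was then -1.11 for Myh3 in edgeR, at an adjusted p of 0.685, -0.86 for Actc1, -0.76 for Myh8, -0.61 for Myl4 and -0.40 for Tnnt2, and Myh3 was lower in mimic in 5 of 5 pairs of equal number, with log2 differences from -4.504 to -0.148 (exact sign-flip p = 0.0625, the smallest that 5 pairs can give). In sham mimic against sham control it was 0.46 for Myh3, -0.82 for Actc1 and -0.30 for Myh8 in edgeR, and -0.30 for Tnnt2 in DESeq2. In MOV mimic against sham mimic, whose libraries are of different mice, it was 1.34 for Myh3 and 1.44 for Myh8. The interaction with the block was -0.0452 in edgeR and -0.103 in DESeq2 for Tnnt2, -0.27 and -0.29 for Myl4, and -0.05 and -0.03 for Actc1. The block changed no other call.

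The pooled SD between libraries of a group was 1.22 to 2.27 on the log2 scale for these genes. The lowest count of any of them in a library was 48.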
